A study of Mus musculus with 4 samples.

Results

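The 5 receptors for sphingosine 1-phosphate (S1P), S1pr1, S1pr2, S1pr3, S1pr4 and S1pr5, and the oxysterol receptor Gpr183 were followed across B cells of the bone marrow and spleen. The genes were chosen by name, with every probe of each: 6 of 28307 gene names and 9 of 41174 gene probes on the array. Cells bearing B220, a surface marker of the B lineage, had been freshly isolated from naive mice, and their total RNA was hybridised with Cy3 to 4 Agilent 1-colour arrays. The groups were bone marrow labelled Mef2c KO, bone marrow of strain C57BL/6 (called WT here), spleen labelled Mef2c KO and spleen of C57BL/6, with 1 array each. Mef2c encodes a MADS box transcription factor expressed in B cells, and the study asked how its loss alters B cell development. The deleted part of the gene, any Cre driver, the background of the KO mice, the age and number of animals and the isolation method are not stated in the labels.

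S1P is abundant in blood and lymph and scarce inside lymphoid tissue, and lymphocytes follow this gradient through G protein coupled receptors. S1pr1 drives exit from the marrow and from lymphoid organs, and with S1pr3 it holds marginal zone B cells at their place in the spleen, whereas S1pr2 opposes migration and confines germinal centre B cells. Gpr183 (also called EBI2) moves activated B cells to the outer follicle along a gradient of a dihydroxylated cholesterol.

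There is no replicate of any group, so a difference between a pair of arrays has no replicate check and no p-value. The error given with a signal or a difference is the scanner software's own spot error, and it covers neither animals nor labelling. Both marrow arrays shared a slide and a scan, and so did both spleen arrays, so tissue and slide cannot be told apart. The KO-labelled arrays were at position 1 and the WT arrays at position 2 of each slide, so genotype and position cannot be told apart either. The spleen KO-labelled array stood apart: its 75th percentile signal was 524 against 966 to 1012 on the others, and 59.3% of its gene spots were well above background against 69.0% to 72.0%. The brighter Mef2c probe read 5511 and 4218 on the marrow KO-labelled and WT arrays and 11838 and 8534 on the spleen arrays, so it was not lower on the arrays labelled KO. The dimmer Mef2c probe read 28.5 and 21.2 in the marrow and 128 and 364 in the spleen. After division by each array's 75th percentile, the KO-labelled minus WT difference of the dimmer probe was 0.36 in the marrow and -0.61 in the spleen in log2. That of the brighter probe was 0.32 and 1.36. The labels do not say whether either probe lies in the deleted part, and each direction below is drawn from the labels. All 10 B lineage markers were well above background on all 4 arrays.

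The sequences of 3 probes come first, in lower case, because the results for S1pr2 differ between its probes and because S1pr4 was lower on both KO-labelled arrays. Positions are on mouse build mm9, as the scanner files give them, and all 3 lie on the minus strand. The S1pr2 probe A_51_P499876 lies at chr9:20772462-20772521, A_51_P499871 at chr9:20772321-20772380 and the S1pr4 probe A_51_P307944 at chr10:80961501-80961560.
S1pr2 A_51_P499876: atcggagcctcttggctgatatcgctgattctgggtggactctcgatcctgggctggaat
S1pr2 A_51_P499871: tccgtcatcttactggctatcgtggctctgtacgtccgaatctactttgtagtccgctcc
S1pr4 A_51_P307944: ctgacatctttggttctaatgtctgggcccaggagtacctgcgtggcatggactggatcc
The remaining S1pr2 probe, A_52_P604613, lies at chr9:20770729-20770788 and is 1592 bases nearer the 3′ end of the transcript than A_51_P499871. S1pr3 has a pair of probes on the plus strand, A_51_P137523 at chr13:51515408-51515467 and A_52_P502577 at chr13:51517079-51517138, which is 1671 bases nearer the 3′ end. S1pr1 is read by A_52_P532227 at chr3:115414020-115414079, S1pr5 by A_51_P480169 at chr9:21047678-21047737 and Gpr183 by A_51_P358683 at chr14:122353099-122353158, all on the minus strand. Each gene is described by its brightest probe unless another is named.

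The promoters of 5 of the 6 genes were in the RefSeq table of build GRCm38.p6, which gives 250 bases before to 50 bases after each start, and S1pr1 was not among them. The promoters of S1pr2, S1pr3 and S1pr4, which were lower together on the spleen KO-labelled array, and of Gpr183, which differed by under 2-fold there, are printed with motif matches in capitals. The motifs searched on both strands were the MEF2 consensus, the KLF box CACCC and the FOXO site TGTTTAC. They were chosen because Mef2c is the gene named by the labels and because Klf2 and Foxo1 are known regulators of S1pr1.
S1pr2 promoter, chr9:20976744-20977043, minus strand: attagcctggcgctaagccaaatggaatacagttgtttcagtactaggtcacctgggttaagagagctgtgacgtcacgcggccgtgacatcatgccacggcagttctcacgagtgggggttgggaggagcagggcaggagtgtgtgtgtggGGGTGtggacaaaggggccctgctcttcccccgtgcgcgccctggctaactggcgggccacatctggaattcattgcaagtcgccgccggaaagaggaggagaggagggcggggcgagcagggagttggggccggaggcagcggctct
S1pr3 promoter, chr13:51408368-51408667, plus strand: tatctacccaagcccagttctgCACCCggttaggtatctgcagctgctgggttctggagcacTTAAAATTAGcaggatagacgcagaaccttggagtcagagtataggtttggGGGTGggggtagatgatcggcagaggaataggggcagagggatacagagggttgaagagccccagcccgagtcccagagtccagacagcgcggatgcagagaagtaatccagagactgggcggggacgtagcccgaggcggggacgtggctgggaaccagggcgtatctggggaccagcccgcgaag
S1pr4 promoter, chr10:81500088-81500387, minus strand: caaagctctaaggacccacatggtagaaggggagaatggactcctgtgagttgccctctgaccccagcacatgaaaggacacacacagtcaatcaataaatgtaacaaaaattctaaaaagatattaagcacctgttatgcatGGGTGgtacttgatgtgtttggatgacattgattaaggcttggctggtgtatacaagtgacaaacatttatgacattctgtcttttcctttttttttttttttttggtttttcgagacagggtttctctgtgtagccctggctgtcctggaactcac
Gpr183 promoter, chr14:121965144-121965443, minus strand: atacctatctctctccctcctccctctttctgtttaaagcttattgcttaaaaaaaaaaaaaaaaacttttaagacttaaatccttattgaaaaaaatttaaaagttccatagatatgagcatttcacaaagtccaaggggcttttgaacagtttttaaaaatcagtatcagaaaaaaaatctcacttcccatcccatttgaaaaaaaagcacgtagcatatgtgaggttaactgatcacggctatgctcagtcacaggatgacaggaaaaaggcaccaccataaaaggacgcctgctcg
The S1pr3 promoter held the MEF2 consensus at 1 place, TTAAAATTAG, from -188 to -179 relative to the start. Of 32851 promoters in the table, 3.19% held that consensus, 57.5% a KLF box and 3.65% the FOXO site. KLF boxes were found at 1 place in S1pr2, 2 in S1pr3, 1 in S1pr4 and 2 in S1pr5, and none of the 3 motifs was found in the Gpr183 window. These letters describe the windows and nothing was measured on binding.

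Between tissues, Gpr183 and S1pr1 were higher in the spleen, Gpr183 by the larger amount. The Gpr183 probe read 1119 ± 112 on the marrow WT array, 1727 ± 173 on marrow KO-labelled, 18989 ± 1899 on spleen WT and 13651 ± 1365 on spleen KO-labelled. Divided by each array's 75th percentile, called the relative signal below, these were 1.16, 1.71, 19.5 and 26.1, so both spleen arrays lay far above both marrow arrays. The spleen was 16.9-fold higher than the marrow in WT (4.08 ± 0.20 on the log2 scale) and 15.3-fold higher between the KO-labelled arrays (3.93 ± 0.20).

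S1pr1, the egress receptor, read 2328 ± 233 on marrow WT, 1527 ± 153 on marrow KO-labelled, 13972 ± 1397 on spleen WT and 3091 ± 309 on spleen KO-labelled. Its relative signals were 2.41, 1.51, 14.4 and 5.90, with both spleen arrays above both marrow arrays. The log2 difference of spleen over marrow was 2.58 ± 0.20 in WT and 1.97 ± 0.20 between the KO-labelled arrays.

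S1pr3, a receptor known from marginal zone B cells, read 356 ± 35.8 on marrow WT, 348 ± 35.0 on marrow KO-labelled, 3020 ± 302 on spleen WT and 443 ± 44.5 on spleen KO-labelled. In relative signal these were 0.368, 0.344, 3.11 and 0.847, so spleen WT stood above the other arrays. The spleen excess was 3.08 ± 0.20 in log2 between the WT arrays and 1.30 ± 0.21 between the KO-labelled arrays. The second probe of S1pr3, at 25.5, 17.6, 79.0 and 23.9 in the same order, was not well above background on marrow KO-labelled. It gave a spleen excess in log2 of 1.62 ± 0.30 in WT and of 1.39 ± 0.45 between the KO-labelled arrays. The latter is measured against that dim signal and is not a lower bound.

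**Figure D1:**
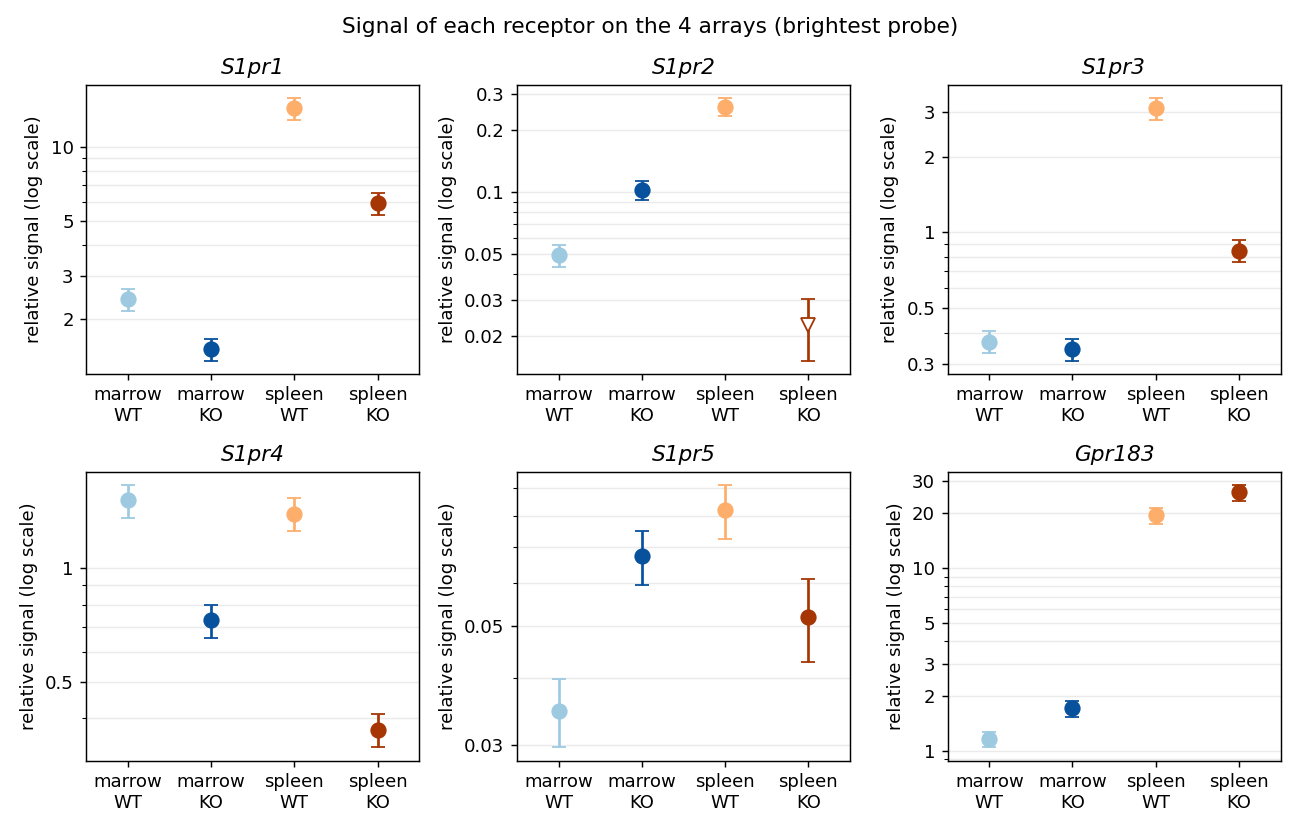
Relative signal (processed signal divided by the array's 75th percentile, log scale) of the brightest probe of each receptor on the 4 arrays, with bars for the scanner software's spot error and an open triangle where the probe was not well above background. Gpr183 and S1pr1 were higher on both spleen arrays than on both marrow arrays, and S1pr4 was lower on both KO-labelled arrays than on both WT arrays.

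S1pr2, the receptor that opposes migration, was dim. Its brightest probe read 47.7 ± 5.80 on marrow WT, 104 ± 11.0 on marrow KO-labelled, 254 ± 25.7 on spleen WT and 11.9 ± 3.92 on spleen KO-labelled, where it was not well above background. The spleen was thus higher by 2.40 ± 0.23 in log2 between the WT arrays, and at least 3.18-fold lower between the KO-labelled arrays. On the other S1pr2 probes the difference between the WT arrays was 0.27 ± 0.27 (A_51_P499876) and 0.84 ± 0.37 (A_51_P499871), under 2-fold. S1pr5, known from natural killer cells, was dim as well, at 33.5 ± 4.86, 68.0 ± 7.83, 79.7 ± 9.14 and 27.2 ± 4.81 in the same order of arrays. Its tissue difference was 1.24 ± 0.27 in log2 between the WT arrays and -0.37 ± 0.30 between the KO-labelled arrays. S1pr4, a receptor expressed in blood and lymphoid cells, read 1462 ± 146 on marrow WT, 736 ± 73.7 on marrow KO-labelled, 1358 ± 136 on spleen WT and 195 ± 19.9 on spleen KO-labelled. The tissues differed by less than the spot error in WT (-0.12 ± 0.20 in log2), and the spleen was lower by -0.97 ± 0.21 between the KO-labelled arrays.

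Counted at 2-fold, 5 of the 6 receptors were higher in the WT spleen than in the WT marrow, all but S1pr4, against a background of 31.2% of 21446 genes that were 2-fold or more apart in either direction. Between the KO-labelled arrays 3 were higher (S1pr1, S1pr3 and Gpr183) and 1 was lower (S1pr2), where the background was 29.5% of 20320 genes. The median difference of the 6 was 2.49 in WT against -0.09 over all genes, and 0.46 against 0.01 between the KO-labelled arrays. These comparisons rest on separate arrays, and the difference between them was not tested. The counts for S1pr2 rest on its brightest probe. By the median over a gene's probes 4 of the 6 were higher and 0 lower between the WT arrays. Between the KO-labelled arrays 3 were then higher and 0 lower.

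The tissue effect over both genotypes was tested with limma on all 4 arrays, with genotype in the model and 1 residual degree of freedom. That residual is how far the tissue difference in WT departs from the one between the KO-labelled arrays, moderated over all genes. The SE and p-values of this fit, for tissue and for genotype, thus do not measure spread between animals. It called 7.05% of 22059 genes at an adjusted p under 0.05 (Benjamini-Hochberg over all genes), 524 higher and 1032 lower in the spleen. Of the 6 receptors 2 passed, both higher in the spleen on 2 of 2 genotypes. The effect for Gpr183 was 4.0 in log2 (SE 0.518, limma adjusted p = 0.00399, range over alternatives 1.4e-16 to 0.0857). For S1pr1 it was 2.27 (SE 0.528, limma adjusted p = 0.0381, range 1.4e-05 to 0.295). S1pr3 missed the threshold at 2.19 (SE 0.601, limma adjusted p = 0.0715, range 6.1e-05 to 0.420). S1pr2, S1pr4 and S1pr5 had limma adjusted p values of 0.977, 0.687 and 0.793. Without scaling between arrays limma called neither Gpr183 nor S1pr1, and with cyclic loess the adjusted p of S1pr1 was 0.0708.

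Markers of B cell stages differed between the tissues beside the receptors. The summed relative signal of 8 early B markers (such as Rag1, Dntt and Vpreb1) was 238 and 521 on marrow WT and KO-labelled and 0.854 and 1.74 on spleen WT and KO-labelled. For 6 measured markers of mature and follicular B cells the sums were 19.1, 15.1, 181 and 140, and for 7 markers of marginal zone B cells 84.7, 114, 160 and 345. NK markers summed to 2.32, 2.54, 5.04 and 7.94, with 6 of 10 at least 2-fold higher in the spleen between the WT arrays. Over all genes 31.2% were that far apart in either direction in this comparison. Markers of plasmacytoid dendritic cells, some of which carry B220, summed to 141, 87.5, 163 and 312. The rise of this sum on spleen KO-labelled was not shared over the list: the median genotype difference of its 7 genes in the spleen was -0.21 in log2. The part of these shifts in the receptor differences was not tested. In bulk RNA, fewer cells of a type and less RNA per cell cannot be told apart.

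Between genotypes, S1pr1, S1pr2, S1pr3 and S1pr4 were lower on the spleen KO-labelled array than on spleen WT, whereas S1pr5 and Gpr183 differed by under 2-fold, with signs that turned under some of the alternatives. S1pr1 was lower by -1.28 ± 0.20 in log2 (2.43-fold), S1pr3 by -1.87 ± 0.20 (3.67-fold) and S1pr4 by -1.91 ± 0.21 (3.75-fold). S1pr2 was at least 8.08-fold lower by its brightest probe. S1pr5 differed by -0.66 ± 0.30 and Gpr183 by 0.42 ± 0.20, both under 2-fold. At 2-fold, 4 of the 6 receptors were lower and 0 higher, where 34.2% of 19810 genes were at least 2-fold apart in either direction, 3888 higher and 2884 lower. Of those genes, 4.51% lay below S1pr3, 4.29% below S1pr4 and 10.1% below S1pr1 in this difference. The median of the 6 was -1.58 against 0.08 over all genes.

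The size of the spleen differences moved with the scaling between arrays. S1pr1 ranged from -2.18 with no scaling to -0.86 when arrays were scaled by the median, S1pr3 from -2.77 to -1.45 and S1pr4 from -2.80 to -1.48 between the same settings. All 3 were lower under every alternative run. Scaling by the median also moved the median of all genes, from 0.08 to 0.51, against which S1pr1, S1pr3 and S1pr4 still stood lower. S1pr5 was between -1.55 and 0.19, above zero with the normexp background correction, and Gpr183 between -0.48 and 0.84, below zero with quantile normalization, cyclic loess and no scaling.

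**Figure D2:**
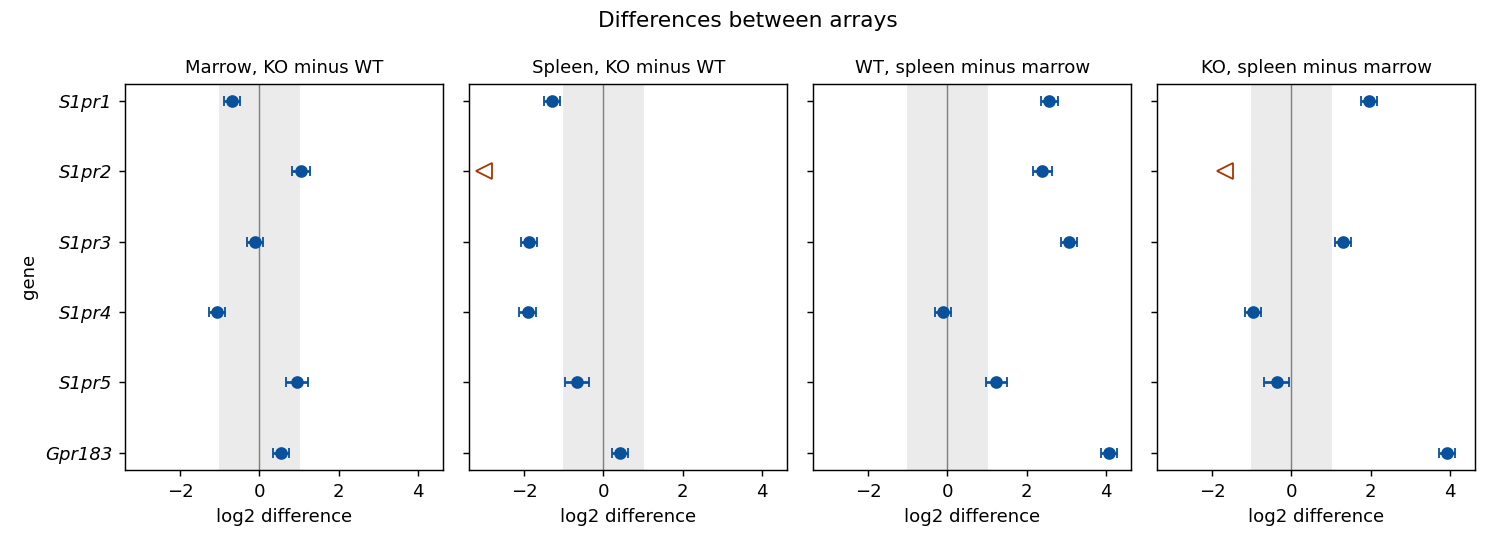
Log2 difference of each receptor in the 4 comparisons, as points with bars for the spot error, open triangles for lower bounds where the probe was not well above background on 1 array, and grey for differences under 2-fold. In the spleen S1pr1, S1pr2, S1pr3 and S1pr4 lay to the left of the grey band, and in the marrow S1pr4 lay just left of it and S1pr2 just right.

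In the marrow the differences did not run one way. Those of S1pr1, S1pr2, S1pr3 and S1pr4 were smaller in size than in the spleen, and those of S1pr5 and Gpr183 were slightly larger. For the latter pair the order turned with the scaling. Gpr183 differed by 0.58 in the marrow and 0.84 in the spleen when scaled by the median. S1pr5 differed by 1.02 and -1.55 with no scaling. S1pr4 was lower on the KO-labelled array by -1.06 ± 0.20 in log2 (2.08-fold) and S1pr1 by -0.68 ± 0.20 (1.60-fold). S1pr2 was higher by 1.06 ± 0.23 (2.08-fold), S1pr5 by 0.95 ± 0.27 (1.94-fold) and Gpr183 by 0.56 ± 0.20 (1.47-fold). S1pr3 differed by -0.10 ± 0.21, less than the spot error. Its second probe differed by -0.60 ± 0.43 in log2, with a signal not well above background on marrow KO-labelled. At 2-fold, 2 of the 6 were apart (S1pr2 and S1pr4), where 13.2% of 21232 genes were, 1777 higher and 1034 lower. Both lay close to the threshold: with the normexp background correction 0 of the 6 were 2-fold apart.

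S1pr4 was the receptor lower on both KO-labelled arrays by over 2-fold. Its marrow difference fell just under 2-fold with normexp (-0.999), cyclic loess (-0.958) and no scaling (-0.990). In the limma fit over both tissues its genotype effect was -1.48 (SE 0.538, lower in 2 of 2 tissues, unadjusted p = 0.0237), with a limma adjusted p of 0.403 (range over alternatives 0.0911 to 0.745). For the genotype effect limma called 0.00907% of 22059 genes (2 genes, both higher), against 2323 genes at an unadjusted p under 0.05, and 0 of the 6 receptors passed. The effects of S1pr1 and S1pr3 were -0.98 and -0.99 with limma adjusted p of 0.551 and 0.593. S1pr2 had -1.23 (limma adjusted p = 0.672), S1pr5 0.15 (0.950) and Gpr183 0.49 (0.764).

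The order of the 4 arrays by relative signal was shared by S1pr1 and S1pr3 and differed among the other receptors. S1pr1 ran from marrow KO-labelled through marrow WT and spleen KO-labelled to spleen WT in steps of 0.68, 1.29 and 1.28 in log2, each over 3 times the spot error. The marrow arrays of S1pr3 differed by 0.10, under the spot error. S1pr4 ran from spleen KO-labelled through marrow KO-labelled to spleen WT and marrow WT, and the last pair differed by 0.12, under the spot error. Gpr183 ran from marrow WT through marrow KO-labelled to spleen WT and spleen KO-labelled. No neighbouring pair of S1pr5 differed by over 2 times its spot error, with steps of 0.58, 0.37 and 0.29 from marrow WT through spleen KO-labelled and marrow KO-labelled to spleen WT.

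The S1pr2 result differed between probes. On A_51_P499876 the signals were 40.6 on marrow WT, 46.1 on marrow KO-labelled, 49.2 on spleen WT and 28.1 on spleen KO-labelled. After scaling, its genotype difference was 0.09 ± 0.31 in the spleen and 0.12 ± 0.26 in the marrow, both less than the spot error. The probe A_51_P499871 read 23.7, 25.6, 42.6 and 14.1 in the same order, was not well above background on spleen KO-labelled, and gave at least 1.36-fold lower in the spleen and 0.05 ± 0.42 in the marrow. The difference of at least 8.08-fold was read on the probe nearest the 3′ end. For S1pr3 both probes were lower on spleen KO-labelled, by -0.83 ± 0.33 on the probe nearer the 5′ end.

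**Figure D3:**
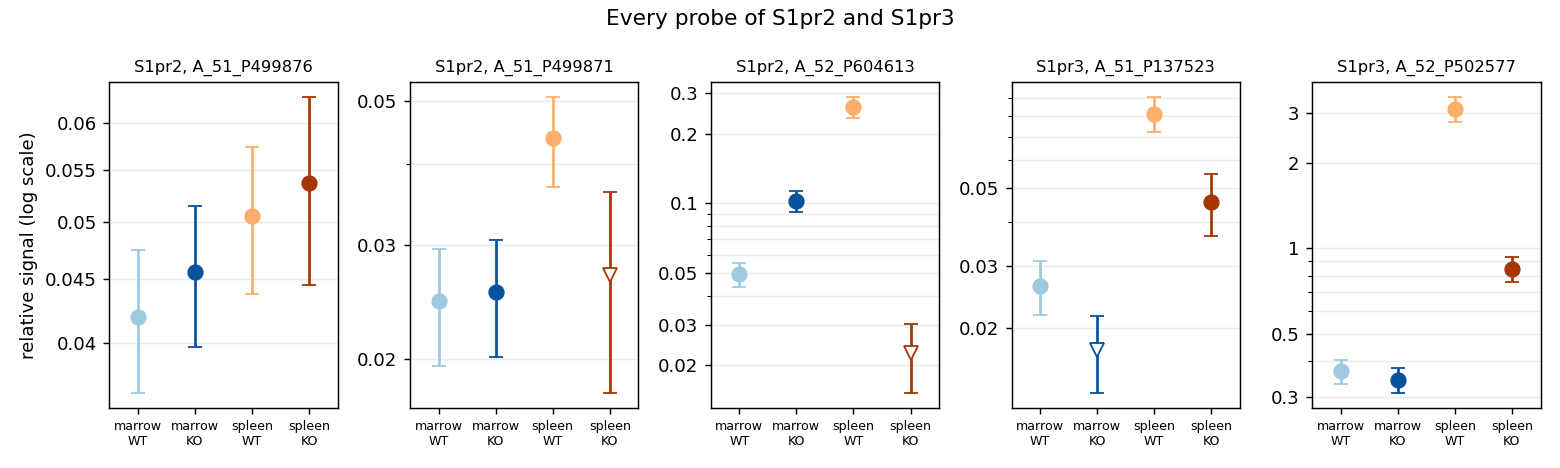
Relative signal (log scale, a separate axis for each probe) of the 3 probes of S1pr2 and the 2 of S1pr3 on the 4 arrays, ordered within each gene from the 5′ to the 3′ end, with bars for spot error and open triangles where the probe was not well above background. The first S1pr2 probe lay between 0.0420 and 0.0537 on all 4 arrays, while the last spread from 0.0227 to 0.261.

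Such disagreement was common on the spleen arrays. Among 3149 pairs of probes on the same transcript, with a median gap of 1339 bases, 47.1% differed by over 2-fold in the spleen genotype difference, against 6.76% in the marrow. The probe nearer the 3′ end gave a spleen difference that was higher by a median of 0.59 in log2, opposite in sign to what S1pr2 and S1pr3 showed. Its part in the results for the receptors read by 1 probe was not tested.

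Marker lists were compared between genotypes too. Over all genes, 13.2% were at least 2-fold apart in either direction in the marrow and 34.2% in the spleen. The spleen counts of the T cell and marginal zone lists below lay near that share. Of the 10 B lineage markers, 4 were at least 2-fold lower and 0 higher on marrow KO-labelled, with a median difference of -0.76 in log2, and in the spleen 4 were lower and 2 higher. The median in the spleen was -0.11. The relative signal of the 10 summed to 619 on marrow WT and 508 on marrow KO-labelled, then to 710 and 1097 in the spleen. Among the lower markers, Cd22 differed by -2.43 and -2.25 in marrow and spleen, and Cd79a by -1.87 and -2.47. Neutrophil markers, such as S100a8 and Ltf, summed to 436 on marrow WT and 1491 on marrow KO-labelled in relative signal, with 9 of 10 at least 2-fold higher, and to 11.4 and 145 in the spleen, with 7 higher and 1 lower. Monocyte and macrophage markers summed to 12.6 and 67.5 in the marrow and 86.1 and 123 in the spleen, and T cell markers to 4.71 and 7.88, then 8.24 and 10.1. Of the 10 monocyte and macrophage markers, 2 were higher and 0 lower in the marrow (median 0.21), and 4 higher and 1 lower in the spleen (median 0.38). Of 9 T cell markers, 4 were higher and 0 lower in the marrow, and 2 higher and 2 lower in the spleen. Endothelial markers summed to 5.54 and 10.7 in the marrow, with 5 of 10 higher, and 3.25 and 1.73 in the spleen. Markers of mature and follicular B cells were lower on marrow KO-labelled for 4 of 6, and in the spleen 1 was higher and 2 were lower. In the spleen 3 of 7 marginal zone markers were higher and 0 lower on the KO-labelled array, the array on which S1pr1 and S1pr3 were lower. This count was 5 and 0 when scaled by the median, 2 and 1 with quantile normalization, 2 and 0 with cyclic loess and 1 and 1 with no scaling. The part of these cells in the receptor differences was not tested.

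Around the receptors, 68 genes of S1P and oxysterol handling, receptor signalling and related receptors were listed. In the marrow 4 of the 62 measured were 2-fold or more higher on the KO-labelled array and 0 lower, and in the spleen 18 of 62 were higher and 12 lower. The shares 2-fold apart were 6.45% in the marrow, where the background over all genes was 13.2%, and 48.4% in the spleen, where it was 34.2%. The direction of the spleen counts moved with the scaling. With no scaling 0 of the 27 listed signalling genes were higher and 12 lower, and 1 of the 12 measured S1P enzymes was higher and 5 lower. When scaled by the median these were 12 and 6, and 3 and 1. Limma called 0 of the 63 listed genes tested for genotype after adjustment, and 6 had an unadjusted p under 0.05. Arrb2, an arrestin that binds activated receptors, and Ptger2, a receptor for prostaglandin E, were the genes higher by over 2-fold in both tissues. Arrb2 was higher by 2.50 and 1.39 in log2 in marrow and spleen (limma unadjusted p = 0.00716, adjusted p = 0.320), and Ptger2 by 2.15 and 1.1 (unadjusted p = 0.0169, adjusted p = 0.391).

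Of the enzymes that make and break down S1P, 12 of 14 were measured. In the marrow 0 of 12 were 2-fold apart, and the values that differed most were 0.88 for Plpp3, a lipid phosphate phosphatase, and 0.70 for Sphk1, a sphingosine kinase. In the spleen 2 were higher and 2 lower: the ceramidase gene Acer3 differed by 1.98 and its relative Acer2 by -1.80. Between tissues, Sphk1 was lower in the WT spleen by -1.20 and the S1P phosphatase gene Sgpp1 higher by 1.02, and between the KO-labelled arrays Acer3 differed by 1.64 and Plpp2 by -1.11. Of the transporters and carriers, Spns2, an S1P exporter, differed by -0.99 in the marrow and 0.33 in the spleen, and the lipid transporter Abca1 by -0.87 and 1.47. The lipid transporter Abcc1 was higher in the spleen by 1.88 in WT and 2.04 between the KO-labelled arrays, and Apom, which carries S1P on plasma lipoprotein, differed by -0.37 between the WT tissues.

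Of the 4 listed enzymes of the Gpr183 ligand, Ch25h and Cyp7b1 were near or under background and Hsd3b7 and Cyp27a1 were well above it on all 4 arrays. Ch25h, which starts the synthesis of the oxysterol, was well above background on the spleen WT array alone, where its relative signal was 0.0232. Cyp7b1, which completes it, was not well above background on any of the 4 arrays. Hsd3b7, which inactivates the oxysterol, differed by 0.36 in the marrow and 0.15 in the spleen between genotypes and by 0.05 between the WT tissues. Cyp27a1, another sterol hydroxylase, was higher in the spleen by 1.31 in WT and 1.09 between the KO-labelled arrays.

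Among 27 genes of receptor signalling and control, 1 was higher and 0 lower in the marrow, and 8 were higher and 9 lower in the spleen at 2-fold, against backgrounds of 13.2% and 34.2% of all genes in either direction. Arhgef1, a guanine nucleotide exchange factor downstream of G12 and G13 proteins, was lower on spleen KO-labelled by -3.22 in log2, and Dnm2, a dynamin of receptor internalisation, by -2.18. In the marrow they differed by -0.35 and -0.52, and Arhgef12, a related exchange factor, by 0.98. The receptor kinase gene Grk3 was higher in the spleen in both genotypes, by 2.44 and 2.79 (limma adjusted p = 0.0209), the gene of this list that limma called between tissues. Arhgef1 was higher in the spleen by 1.65 between the WT arrays. With quantile normalization 2 of the 27 were higher and 10 lower in the spleen, with cyclic loess 2 and 11, with no scaling 0 and 12, and when scaled by the median 12 and 6.

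The known regulators of S1pr1 did not follow it in one direction. Cd69, whose product pulls S1pr1 off the cell surface, differed by -0.92 in the marrow and 1.09 in the spleen, and by 2.20 between the KO-labelled tissues. Klf2, an activator of S1pr1 transcription, differed by -0.89 in the marrow and 0.99 in the spleen, where cyclic loess turned its sign (-0.15), and was lower in the WT spleen than in the WT marrow by -1.17. Foxo1, which acts upstream of Klf2, differed by -0.23 and -0.71. Grk2, the kinase that desensitises S1pr1, differed by 0.17 and -0.02, and the G protein gene Gnai2 by -0.51 and -0.14, under 2-fold in all 4 comparisons.

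**Figure D4:**
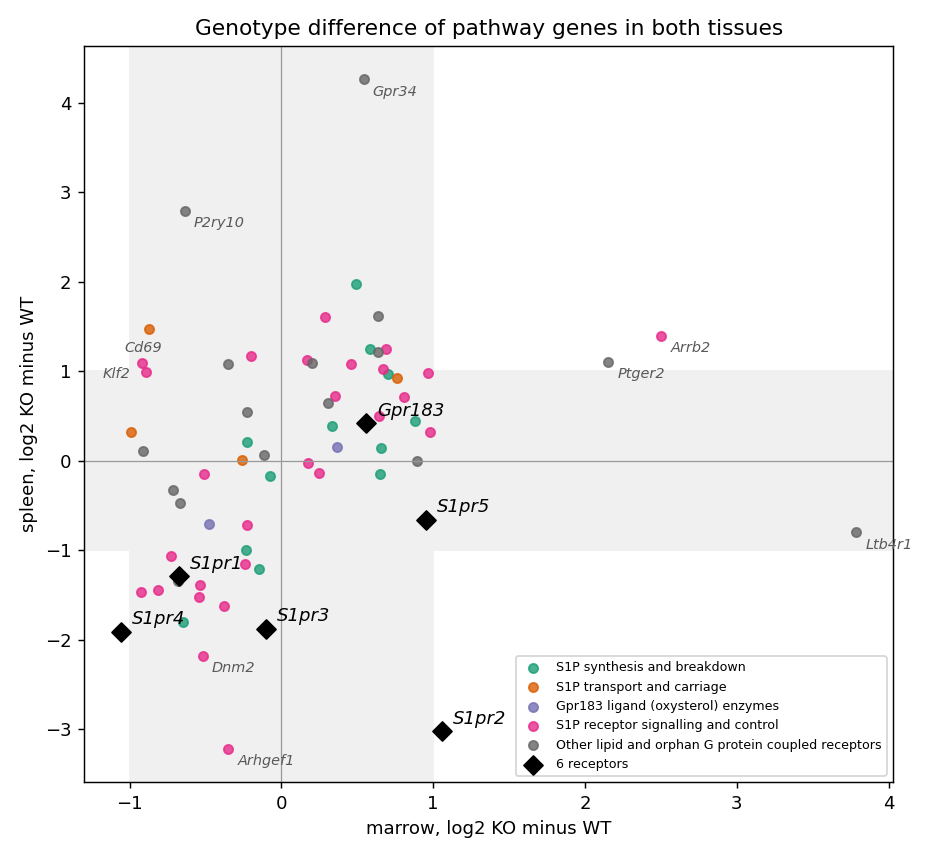
Log2 difference of KO-labelled minus WT in the marrow (horizontal) and spleen (vertical) for the listed genes measured in both and the 6 receptors as black diamonds, with grey for differences under 2-fold in either tissue and S1pr2 in the spleen at its lower bound. Arrb2 and Ptger2 lay at over 2-fold in both tissues, and S1pr4 was the diamond at over 2-fold lower in both.

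Other receptors for lipids and their orphan relatives gave 3 higher and 0 lower of 17 in the marrow and 7 higher and 1 lower of 16 in the spleen, against the same backgrounds of 13.2% and 34.2%. With no scaling the spleen count was 2 higher and 4 lower. The genes of this list that differed most in the spleen were Gpr34, a receptor for lysophosphatidylserine, at 4.26, and P2ry10, another, at 2.79. Ltb4r1, the leukotriene B4 receptor of neutrophils and other leukocytes, was higher by 3.79 on marrow KO-labelled and differed by -0.80 in the spleen. The summed neutrophil markers were higher on the KO-labelled array in both tissues (1491 against 436 in the marrow, 145 against 11.4 in the spleen). Their part in the Ltb4r1 differences was not tested. For tissue, limma called Gpr174 (3.81, adjusted p = 0.00511) and Gpr34 (4.03, adjusted p = 0.0231) as higher in the spleen, and Ltb4r1 (-4.91, adjusted p = 0.0182) and Lpar1 (-2.81, adjusted p = 0.0158) as lower. Lpar1 was named after its value was seen.

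Genes whose centred log2 profile over the 4 arrays lay nearest to each receptor were sought among 16516 genes well above background on all 4. For S1pr4 these were Arhgap27 at a Euclidean distance of 0.0455, Xpnpep1 at 0.112 and Spsb3 at 0.120, and 142 genes lay within 0.5. Around S1pr1 lay Col23a1 at 0.246, Bbs2 at 0.253 and AK088332 at 0.272, with 35 genes within 0.5. The genes nearest S1pr3 were Aldoc at 0.188, Mak10 at 0.218 and AF315352 at 0.240, with 19 within 0.5, and those nearest S1pr5 were 1700096K18Rik at 0.103, Arhgap8 at 0.153 and Pdlim7 at 0.187, with 117 within 0.5. The profile of Gpr183 had the fewest neighbours, 4 within 0.5, led by Cdh17 at 0.158, Pglyrp2 at 0.430 and E130102H24Rik at 0.466. S1pr2 was not well above background on all 4 arrays and was left out. With 4 points that share their arrays and scaling, these distances are a description.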

How the data were processed

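The deposited scanner files come from Agilent's Feature Extraction, version 10.5.1.1, and their processed signal is an intensity on a linear scale, background-corrected but not normalized between arrays, per the file headers. The deposited series matrix held identical intensity values at all 45018 spots, without centring, with column medians of 85.4 (marrow KO), 82.7 (marrow WT), 37.9 (spleen KO) and 93.0 (spleen WT).

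Outlier spots (72 to 85 per array) and control spots were left out, 0 gene spots were saturated, and the log2 signal minus the array's 75th percentile was used. Spots of a probe were averaged and the brightest probe stood for its gene. Probes were named through RefSeq accession (25097), current symbol (6333) or the file's own name (9744), the reference table of build GRCm38.p6 serving for names and promoters only. Genes counted as measured in a comparison when well above background on at least 1 of its arrays. Where this held on 1 array only, the difference is a bound against the lowest signal well above background, written as at least N-fold. If the dim probe's own signal was higher than that, as for S1pr3, the measured difference is given with its spot error. With 1 array per group, pairs of arrays were compared by fold with no test. Tissue and genotype were fitted together with limma 3.58.1 in R 4.3.3 (lmFit, eBayes) and adjusted by Benjamini-Hochberg over all genes. The code was first run on simulated data with additive effects and less noise, which does not show how limma behaves on these arrays. Repeated spots had a median SD of 0.0639 to 0.0780 in log2. Precision is limited by the number of arrays.

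The receptors, gene lists and tests were chosen with earlier results of these data known. Named were all receptors with all probes, the listed genes 2-fold apart in the same direction in both tissues, the 2 listed genes of each list that differed most in each comparison, 8 set regulators and the 3 nearest profiles of each receptor. Alternatives were normexp background correction (offset 50), quantile, cyclic loess, median and no scaling, the median over probes, no filter on background, a 1.5-fold threshold and other limma settings. Mfsd2b was not found by name on the array and is not analysed here.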

Additional observations from a re-analysis of the deposited data

Results flagged for a closer look

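S1pr2 moved in opposite directions in the 2 tissues: by its brightest probe it was higher on marrow KO-labelled than on marrow WT by 1.06 in log2 and lower on spleen KO-labelled than on spleen WT by -3.02 or more in size, a bound, which makes a gap of -4.07 at that bound. Seen across genotypes, the same 4 arrays give a spleen difference of -1.67 at its bound between the KO-labelled arrays and 2.40 between the WT arrays, again a gap of -4.07 at the bound. S1pr5 was lower in the spleen by -0.37 between the KO-labelled arrays and higher by 1.24 between the WT arrays, a gap of -1.61. With the normexp background correction S1pr5 was higher in the spleen in both, by 0.37 between the KO-labelled arrays and 0.60 between the WT arrays. These gaps were not tested, since 1 array per group leaves no residual degree of freedom for an interaction. The other S1pr2 probes gave genotype differences of 0.12 and 0.05 in the marrow and of 0.09 and, as a bound, -0.44 in the spleen. Their differences of spleen over marrow were 0.27 and 0.84 between the WT arrays and 0.24 and, as a bound, 0 between the KO-labelled arrays.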

How the results depend on the processing

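Of 228 alternative values of the receptors, 162 moved by less than the spot error, and 2 differences of over 2-fold turned their sign, both on the S1pr2 probe A_51_P499876: 0.087 for the spleen genotype difference and 0.24 between the KO-labelled tissues. The other 64 moved by more than the spot error. Part of the 162 could not move, since series matrix values were among the alternatives and equal the processed signal at every spot. For receptors read by 1 probe, the choice of probe and the median over probes also leave the value unchanged. The filter on background changes nothing where a probe was well above background on both arrays. Signs also turned for differences of under 2-fold, up to 0.01 for S1pr3 in the marrow, 0.19 for S1pr5 in the spleen, 0.37 for S1pr5 between the KO-labelled tissues, and down to -0.48 for Gpr183 in the spleen. The receptors at least 2-fold apart in the marrow (2) became 0 with normexp, 1 with the median over probes and 4 at 1.5-fold, and the counts of the other 3 comparisons stayed within 1.5 times. Genes at least 2-fold apart in the marrow (2811) became 1387 with normexp, 4417 with no filter and 6114 at 1.5-fold. At 1.5-fold the count was 10952 in the spleen, 11304 between the WT tissues (4297 with normexp) and 9835 between the KO-labelled tissues. The share of these genes that was higher was 63.2% in the marrow, against 75.3% with normexp or cyclic loess, 52.2% with no filter and 48.9% at 1.5-fold. In the spleen it was 57.4%, against 69.7% with normexp, 79.8% scaled by the median, 9.89% with no scaling and 46.7% by the median over probes. Between the WT tissues it was 49.9%, against 38.8% scaled by the median, and between the KO-labelled tissues 52.7%, against 65.1% scaled by the median, 43.7% with cyclic loess and 9.88% with no scaling.

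Limma's genotype count (2) was 633 with normexp, 443 scaled by the median, 593 with no filter, 461 with genes well above background on all 4 arrays, 363 with trend and robust, 8 by the median over probes, and 0 with cyclic loess (2111 at an unadjusted p under 0.05) and with no scaling (1164). Its tissue count (1556) was 2347 with normexp, 2689 with no filter, 2497 with trend and robust and 0 with no scaling (3298 unadjusted). The cause of these moves was not tested. Leaving out an array leaves no residual degree of freedom, so it was not run. No paired analysis was possible because each group holds 1 array. S1pr2 and S1pr5 lie near the background, where the spot error is largest.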
